A study of Mus musculus with 30 samples.

Results

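Transcripts of 10 nucleic acid sensor genes were followed in inflamed mouse back skin. The genes were Ddx58 (which encodes RIG-I), Ifih1 (MDA5), Dhx58 (LGP2), Ddx60, Zbp1, Eif2ak2 (PKR), Tlr3, Tlr7, Aim2 and Ifi204. They were taken by gene symbol, which gave 23 of the 45037 probe sets on the array and 10 of its 22121 gene symbols. All 23 probe sets lay above the 20% of probe sets with the lowest mean intensity, which were left out before testing. A probe set that reads Ifi204 is shared with Ifi205, Mnda and Mndal, and its value cannot be assigned to any of these genes alone.

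Nucleic acid sensors are the receptors by which cells recognise viral, or misplaced cellular, RNA and DNA. RIG-I and MDA5 are cytosolic helicases that bind double-stranded RNA and signal through the mitochondrial adaptor MAVS, and LGP2 is a related helicase that lacks the signalling domains and modulates both. PKR halts translation when it meets double-stranded RNA, and ZBP1 binds left-handed Z-form nucleic acid and can start necroptosis. Tlr3 and Tlr7 encode endosomal receptors for double-stranded and single-stranded RNA, AIM2 assembles an inflammasome on cytosolic DNA, and the protein of Ifi204 belongs to the same family of DNA-binding proteins. Most of these genes are themselves induced by type I interferon, and keratinocytes as well as infiltrating myeloid cells can express them.

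Shaved back skin came from female WT and D6-deficient mice of strain 129–C57BL/6, aged 8 to 12 weeks. D6 is an atypical receptor that binds inflammatory CC chemokines and removes them. The skin had received 3 applications of the phorbol ester TPA (50 μM), an irritant, and was taken 1, 2, 4 or 6 days later. Control skin of each genotype stands as day 0; the methods and sample descriptions call it acetone-treated, whereas the sample titles call it untreated. Genotype and day together defined 10 groups of 3 mice, with 1 array per mouse and 30 arrays in all, and the labels do not say whether WT and D6-deficient mice were littermates. RNA was from whole skin, in which fewer cells of a type and less RNA per cell cannot be told apart.

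On a probe set of the D6 gene (Ccbp2), D6-deficient skin ranged between 3.30 and 3.86 on the log2 scale and WT skin between 4.15 and 5.76, and averaged over the days the genotypes differed by -1.41 (adjusted p = 1.29e-08). Another of its 3 probe sets differed by -0.69 (adjusted p = 5.2e-05), and the third by -0.07 (adjusted p = 0.795). Arrays of the same group correlated at 0.979 to 0.995. By their hybridization control signals the arrays formed a set of 17 and another of 13, both of which held day 2 arrays of WT and of D6-deficient mice. The summed intensity of the keratinocyte markers Krt5, Krt14, Krt1 and Krt10 ran from 50275 to 55974 in WT and from 49863 to 51507 in D6-deficient skin at day 2, and from 19259 to 24423 and from 11718 to 17117 at day 4, so these transcripts were present throughout but not at a steady level.

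Because most of the members moved together on day 2, their promoters were searched for the interferon-stimulated response element. Of the 10 genes, 6 had an entry in the RefSeq promoter table of build GRCm38.p6 (Ddx58, Ifih1, Ddx60, Eif2ak2, Tlr3 and Aim2). The 250 bases before each start were searched on both strands for that element, taken as GAAA followed after any 2 bases by a second GAAA, and for the gamma-activated site TTCNNNGAA, where N is any base. Ddx60 held 2 copies of the first, which begin 53 and 19 bases before its start. At least 1 copy stood in 2.98% of the 32851 promoters of the table, and 2 or more in 0.180%. Ddx58 held the form with a spacer of 1 base, GAAANGAAA, 60 bases before its start, which 2.68% of promoters hold and which was added to the search after the sequences were seen. Eif2ak2 held 1 TTCNNNGAA, 178 bases before its start, as did 7.02% of promoters. Ifih1, Tlr3 and Aim2 held none of these letters in this window. The stretches before the starts of Ddx60 and Ddx58 are shown because these genes include the largest day 2 difference among the members and the smallest adjusted p; the motifs are in capitals, read 5′ to 3′ along the strand of the gene. The Ddx60 stretch is chr8:61928024-61928086 (plus strand) and the Ddx58 stretch chr4:40239854-40239893 (minus strand).
Ddx60: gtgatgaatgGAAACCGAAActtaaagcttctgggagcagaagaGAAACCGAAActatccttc
Ddx58: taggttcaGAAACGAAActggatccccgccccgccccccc

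Most of the sensors differed between the genotypes at day 2. The change from day 0 was larger in D6-deficient than in WT skin for all 23 probe sets, with a median difference of 1.54 on the log2 scale against -0.01 over all tested probe sets. Of the 23, 18 were higher at an adjusted p under 0.05 (limma, Benjamini-Hochberg adjustment over all tested probe sets), where 2.78% of all 36029 tested probe sets were. A probe set was called when its change was also more than 3-fold, and 11 of the 23 were called higher in D6-deficient skin, where 0.555% of all tested probe sets were. These 11 belonged to Ddx58, Dhx58, Ddx60, Zbp1, Eif2ak2, Tlr7 and Ifi204. Aim2 was the gene with no probe set past the adjusted p.

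Compared directly on day 2, without subtraction of day 0, 15 of the 23 probe sets were higher in D6-deficient skin at an adjusted p under 0.05, against 2.46% of all tested, and 5 were called higher, against 0.411%. The called probe sets were those of Dhx58 (2), Zbp1 (2) and Ddx60 (1). The 3 D6-deficient arrays lay wholly to 1 side of the 3 WT arrays for 20 of the 23 probe sets, and this held for 22.3% of all tested probe sets. The methods' t-test, which tests each probe set alone without limma's moderated variance, called 5 of the 23 unadjusted and 0 after Benjamini-Hochberg adjustment. Of the quoted probe sets, the 8 that passed the adjusted p by limma did not pass by that test after adjustment (0.0728 to 0.355). By limma the calls were 8 without D6-deficient replicate 2 of day 2.

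**Figure D1:**
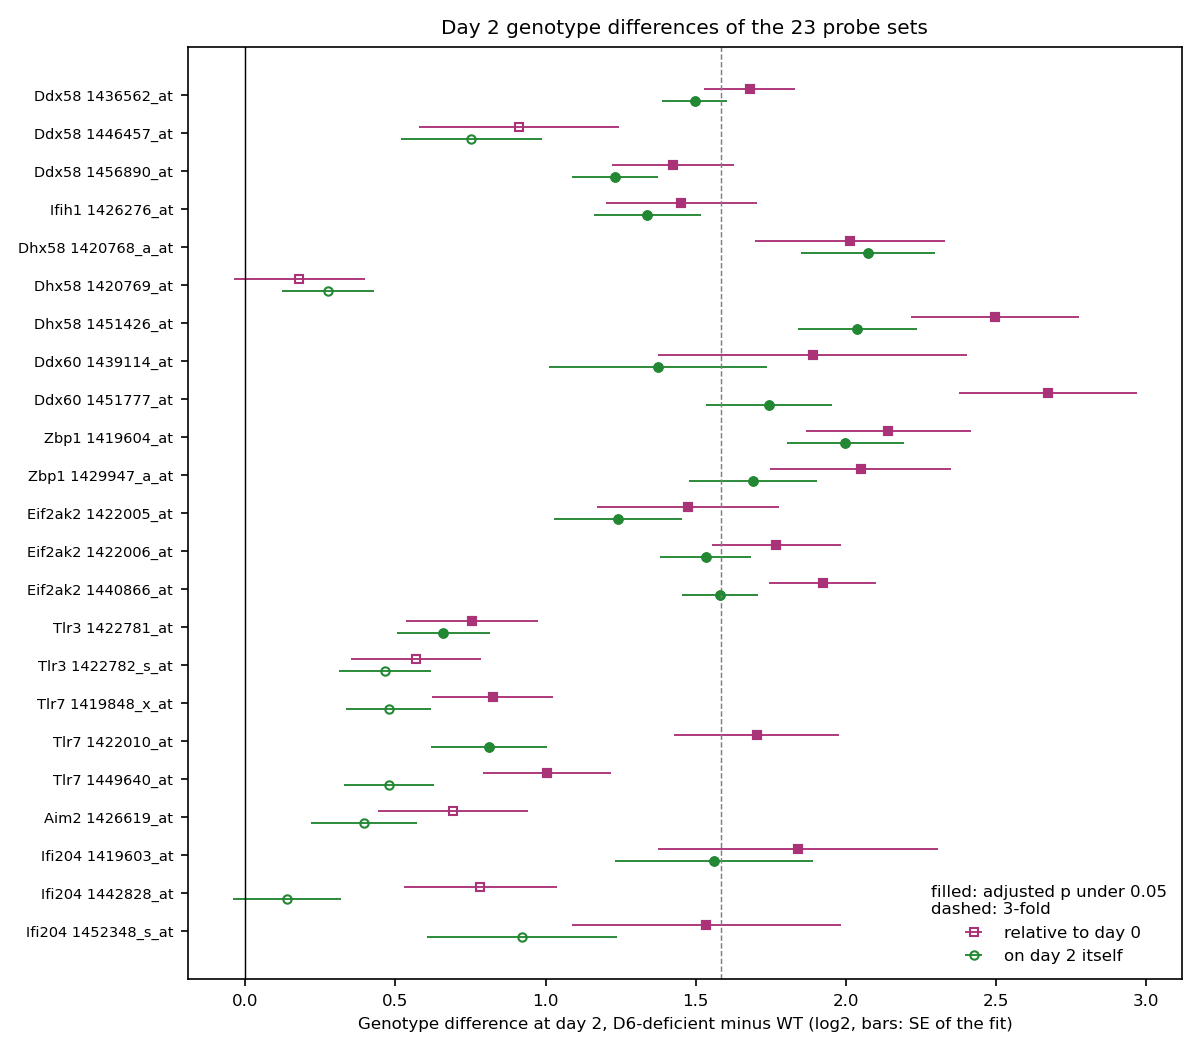
Genotype difference at day 2 (horizontal axis, log2, D6-deficient minus WT) for each of the 23 probe sets (vertical axis), relative to day 0 (squares) and on day 2 itself (circles). Bars are the SE of the fit, filled symbols passed an adjusted p of 0.05 and the dashed line marks 3-fold; every point lies to the right of 0.

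Among the RNA helicases, Ddx58 had the smallest adjusted p. At day 2 its WT arrays read 7.66, 7.65 and 7.76 on the log2 scale and its D6-deficient arrays 9.22, 9.07 and 9.27, so that the genotypes were far apart, whereas at day 0 they read 7.92, 7.95 and 7.81 against 7.83, 7.68 and 7.62. The difference relative to day 0 was 1.68 (3.20-fold, SE 0.151, adjusted p = 5.05e-07). It arose from a rise in D6-deficient skin, by 1.48 from day 0 to day 2 (adjusted p = 3.95e-10), and a WT change of -0.20 (adjusted p = 0.18). A second probe set of the gene gave 1.42 (adjusted p = 1.4e-04) and the third gave 0.91 (adjusted p = 0.126).

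Dhx58 showed one of the larger differences. Its day 0 arrays read 6.41, 6.94 and 6.58 in WT and 6.31, 6.20 and 6.05 in D6-deficient skin. Its WT arrays read 6.21, 6.29 and 6.15 at day 2 and its D6-deficient arrays 8.29, 8.06 and 8.42, with no overlap, and the difference relative to day 0 was 2.50 (5.64-fold, SE 0.28, adjusted p = 6.7e-06). A second Dhx58 probe set agreed in size, at 2.01 (adjusted p = 4.0e-04), and the third, whose group means ran from 3.49 to 4.13, gave 0.18 (adjusted p = 0.766).

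Ddx60 had the largest difference relative to day 0 of all 23 probe sets, at 2.67 (6.38-fold, SE 0.296, adjusted p = 6.2e-06). Both genotypes contributed to it. The WT arrays fell from 8.06, 7.72 and 7.48 at day 0 to 6.72, 6.63 and 6.52 at day 2, a change of -1.13 (adjusted p = 2.8e-04), while the D6-deficient arrays rose from 6.47, 7.03 and 6.98 to 8.51, 8.20 and 8.39, a change of 1.54 (adjusted p = 3.2e-06). On this probe set the genotypes thus lay in opposite order at day 0 and day 2, and on day 2 itself the difference was 1.74 (adjusted p = 6.6e-06). The other Ddx60 probe set gave 1.89 relative to day 0 (adjusted p = 0.029).

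Ifih1, the MDA5 gene, has a single probe set. At day 0 it read 9.58, 9.68 and 9.81 in WT and 9.65, 9.40 and 9.69 in D6-deficient skin. At day 2 it read 9.52, 9.16 and 9.41 against 10.92, 10.37 and 10.82. The D6-deficient arrays of day 2 were higher than those of any other group, and the difference relative to day 0 was 1.45 (2.74-fold, SE 0.252, adjusted p = 0.001), below the 3-fold threshold.

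Zbp1 and Eif2ak2, the genes of ZBP1 and PKR, followed the helicases at day 2. Zbp1 read 7.58, 7.53 and 7.94 in WT and 9.44, 9.05 and 9.63 in D6-deficient skin at day 2, against 7.18, 7.46 and 7.35 and 7.11, 6.89 and 6.91 at day 0. The arrays of day 2 did not overlap, and the difference relative to day 0 was 2.05 (4.14-fold, SE 0.301, adjusted p = 2.0e-04), with 2.14 on its other probe set (adjusted p = 3.7e-05). The quoted Eif2ak2 probe set (that with the highest mean, as for the other genes, where a probe set naming a single gene was preferred) read 7.03, 7.21 and 7.11 in WT and 8.25, 8.30 and 8.52 in D6-deficient skin at day 2, again without overlap. Its difference relative to day 0 was 1.47 (2.78-fold, SE 0.301, adjusted p = 0.0039), and its other probe sets were called, at 1.77 (adjusted p = 1.8e-05) and 1.92 (adjusted p = 6.6e-07).

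The endosomal receptors Tlr7 and Tlr3 were not called on day 2 itself. Tlr7 read 7.48, 7.44 and 7.55 in WT and 8.12, 8.32 and 8.46 in D6-deficient skin at day 2, a difference of 0.81 (1.75-fold, SE 0.194, adjusted p = 0.013) that no longer passed without WT replicate 1 of day 2 (adjusted p = 0.0517), D6-deficient replicate 2 (0.0566) or replicate 3 (0.0751). Relative to day 0 the difference was 1.70 (3.25-fold, adjusted p = 5.1e-04), since the genotypes also differed at day 0, in the opposite direction: WT arrays read 7.77, 7.80 and 7.73 and D6-deficient arrays 6.75, 6.77 and 7.11. The other 2 Tlr7 probe sets gave 0.82 and 1.00 relative to day 0 (adjusted p = 0.015 and 0.0052).

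Tlr3 read 7.33, 7.47 and 7.30 in WT and 7.94, 7.72 and 7.83 in D6-deficient skin at day 2. These arrays did not overlap, but the difference of 0.46 did not pass (SE 0.153, adjusted p = 0.093), nor did that of 0.57 relative to day 0 (SE 0.217, adjusted p = 0.15). A second Tlr3 probe set gave 0.66 on day 2 itself (adjusted p = 0.012) and 0.76 relative to day 0 (adjusted p = 0.043).

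Of the DNA sensors, Ifi204 was called relative to day 0 and Aim2 did not pass. Aim2 was near the lower end of the scale in every group, with day 2 arrays at 4.07, 4.34 and 3.81 in WT and 4.40, 4.95 and 4.05 in D6-deficient skin. These overlapped, and the difference relative to day 0 was 0.69 (SE 0.25, adjusted p = 0.12), or 0.90 (adjusted p = 0.0304) without D6-deficient replicate 3 of day 2 and 0.45 (adjusted p = 0.382) without replicate 2. Ifi204 read 7.51, 6.48 and 7.53 in WT and 9.62, 8.51 and 8.06 in D6-deficient skin at day 2, the widest spread of any quoted group, and its difference relative to day 0 was 1.84 (3.58-fold, SE 0.467, adjusted p = 0.019). That value lost its adjusted p without WT replicate 1 of day 0 (0.0585), WT replicate 2 of day 2 (0.0639), D6-deficient replicate 3 of day 0 (0.0563) or D6-deficient replicate 1 of day 2 (0.0563), and with only the arrays of the contrast fitted (0.0685). The probe set it shares with its neighbours gave 1.54 (adjusted p = 0.043) and the third 0.78 (adjusted p = 0.0774).

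**Figure D2:**
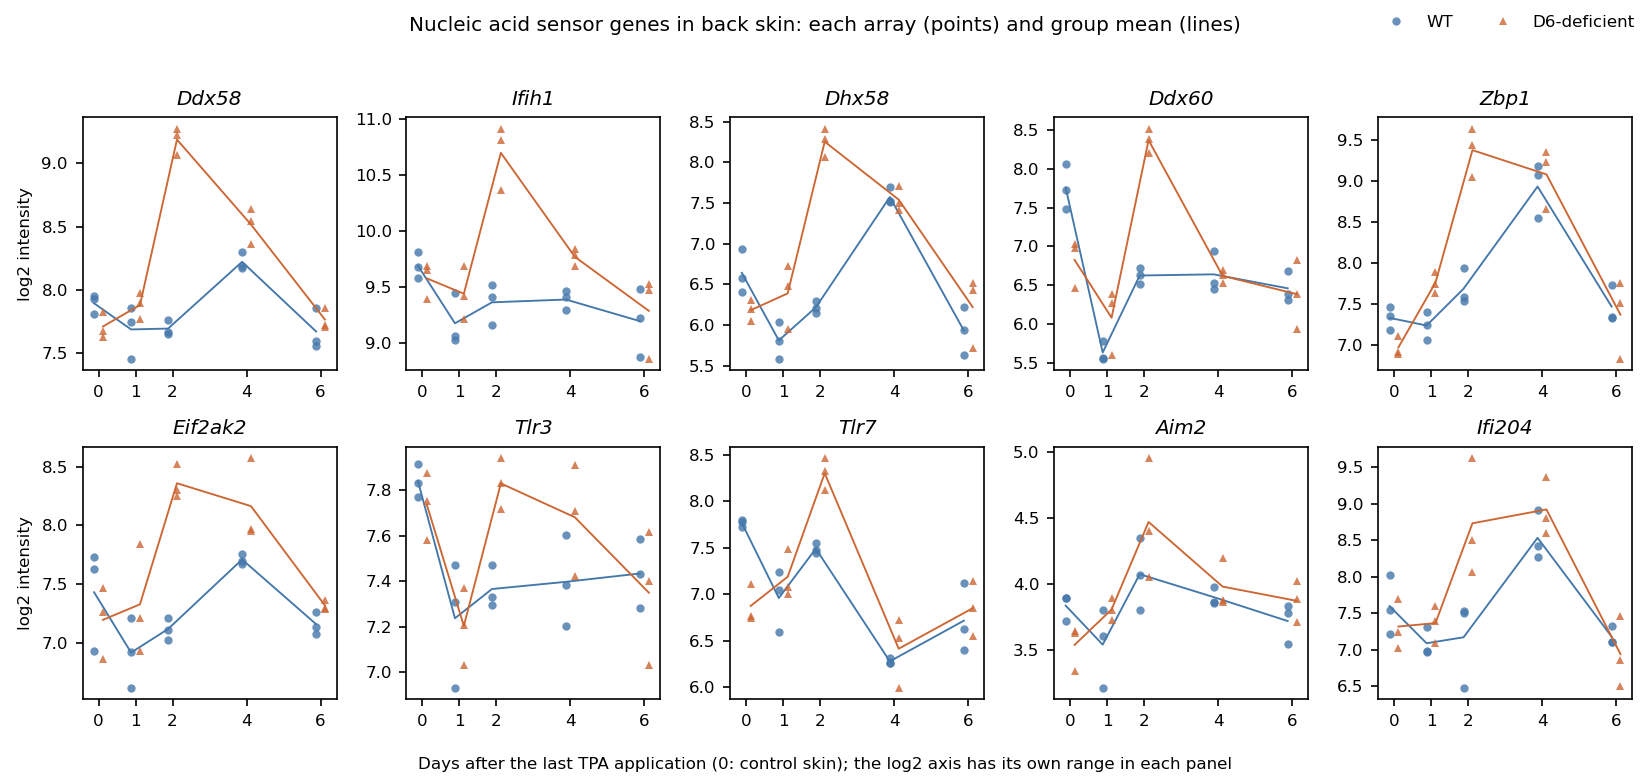
Log2 intensity (vertical axis, with its own range in each panel) of the quoted probe set of each of the 10 genes by days after TPA (horizontal axis, day 0 being control skin). Points are single arrays, circles WT and triangles D6-deficient, and lines join the means of 3 arrays; at day 2 the D6-deficient arrays lie above the WT arrays in every panel except that of Aim2.

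At day 0 the members leaned the other way. Of the 23 probe sets, 21 were lower in D6-deficient skin, with a median of -0.28, and 2 passed the adjusted p: Ddx60 at -0.93 (adjusted p = 0.024) and Tlr7 at -0.89 (adjusted p = 0.019). Over all tested probe sets, 0.855% were lower at that threshold. Neither was more than 3-fold, and each lost its adjusted p when single arrays of day 0 were left out. For Ddx60 these were WT replicate 1 (0.105) or 2 (0.0689) and D6-deficient replicate 1 (0.152) or 3 (0.0532). For Tlr7 they were any of the WT arrays (0.0542 to 0.0701) and D6-deficient replicate 1 (0.111) or 2 (0.0589). Some cell markers also differed at day 0 at an adjusted p under 0.05, as did 257 higher and 308 lower of all 36029 tested. Higher in D6-deficient skin were 2 of 4 keratinocyte markers, Krt5 (0.70, adjusted p = 0.0099) and Krt14 (0.73, adjusted p = 0.017), and 1 of 6 neutrophil markers, S100a8 (2.41, adjusted p = 0.035). Lower were 1 of 6 macrophage markers, Cd68 (-0.83, adjusted p = 0.038), and 1 of 6 plasmacytoid dendritic cell markers, Ccr9 (-1.98, adjusted p = 5.5e-06). Krt1 (0.71), Krt10 (0.23), S100a9 (2.04), Ngp (0.18), Camp (0.08), Ltf (0.01), Cxcr2 (-0.07) and Ly6d (0.59, of the plasmacytoid list) did not pass. Nor did Siglech (-0.58), Bst2 (-0.67), Tcf4 (-0.30) and Cox6a2 (-0.13). The keratinocyte sum ran from 26657 to 28099 in WT and from 37373 to 40229 in D6-deficient skin, and the part of these cells in the sensor values was not tested. Day 0 enters all comparisons relative to it, so those of days 1, 2, 4 and 6 share these 6 arrays.

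At day 1 the difference relative to day 0 was positive for all 23 probe sets (median 0.63), yet none passed the adjusted p in limma, in which 0.0194% of all tested probe sets did. Of the 23, 14 had an unadjusted p under 0.05, as did 3494 of all 36029 tested. The methods' t-test called 0, and 1 was called when arrays were weighted. At day 4, 10 of the 23 had an unadjusted p under 0.05, as did 3949 of the 36029 tested, and at day 6 6 had, as did 2886. Among the 23, limma and the methods' t-test called 0 at either day, with medians of 0.50 and 0.28. Of all tested probe sets, limma called 0.153% at day 4 and 0.00278% at day 6. Without subtraction of day 0 the medians were smaller, at 0.28 on day 1, 0.10 on day 4 and 0.0001 on day 6. On day 6 itself 12 of the 23 were positive and 11 negative. On day 1 itself 7 of the 23 had an unadjusted p under 0.05, as did 2887 of the 36029 tested. None of the 23 passed the adjusted p by limma, where 7 of all tested were higher and 13 lower.

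Within WT skin, 11 probe sets were below day 0 at day 1 and 8 above it at day 4. At day 1, 11 of the 23 probe sets were lower than at day 0 and none higher at an adjusted p under 0.05, where 12.7% of all tested probe sets were lower. Ddx60 was called, with arrays at 5.56, 5.56 and 5.78, a change of -2.12 (4.35-fold, adjusted p = 2.4e-07). Of all tested probe sets, 0.835% were called lower there, and without WT replicate 3 of day 0 the calls were 2. At day 4, 8 probe sets were higher and 5 lower than at day 0, where 17.3% and 21.8% of all tested were. The higher ones included Zbp1, at 9.17, 8.54 and 9.07 (1.60, adjusted p = 2.4e-06), Dhx58, at 7.51, 7.52 and 7.69 (0.93, adjusted p = 5.8e-04), and Ifi204, at 8.27, 8.42 and 8.91 (0.94, adjusted p = 0.027). The Ifi204 change did not pass without WT replicate 2 (adjusted p = 0.0642) or 3 (0.123) of day 0 or WT replicate 3 of day 4 (0.13). Zbp1 was the single call there (3.03-fold), where 1.76% of all tested were called higher. It was under 3-fold without WT replicate 1 of day 0 (1.53) and without WT replicate 1 (1.48) or 3 (1.53) of day 4.

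The 5 lower ones of 23 at day 4 in WT skin are no more than the share over all tested probe sets (21.8%). They were a probe set of Ddx60 (-1.12, adjusted p = 1.6e-04), the 3 of Tlr7 and 1 of Tlr3 (-0.44, adjusted p = 0.024). The other Ddx60 probe set did not pass, with WT means of 6.52 at day 0 (SD 1.15) and 5.99 at day 4. Tlr7 had its lowest WT level there, at 6.26, 6.32 and 6.26, which was -1.49 from day 0 (2.80-fold, adjusted p = 1.9e-06). Tlr3 was also below day 0 at days 1 (-0.60, adjusted p = 0.0054) and 2 (-0.47, adjusted p = 0.024). These Tlr3 changes depended on single arrays. The change at day 1 did not pass without WT replicate 1 of that day (adjusted p = 0.0556), and those at days 2 and 4 did not pass without WT replicate 1 or 3 of day 0 or of the day itself (0.055 to 0.078 and 0.0524 to 0.128). By day 6, 7 of the 23 were lower than at day 0 and none higher, where 11.9% of all tested were lower, among them Ddx60 at -1.30 (adjusted p = 1.2e-04) and Tlr7 at -1.05 (adjusted p = 4.6e-04).

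Within D6-deficient skin, 20 of the 23 probe sets were above day 0 at day 2 and 12 at day 4, and the shares at days 1 and 6 were below those of all tested probe sets. At day 1, 3 probe sets were higher than at day 0, 1 of Zbp1 (0.79, adjusted p = 0.0053) and 2 of Eif2ak2 (0.96, adjusted p = 3.3e-05, and 0.78, adjusted p = 4.3e-05), and 2 were lower, of Ddx60 (-0.74, adjusted p = 0.0071) and Tlr3 (-0.53, adjusted p = 0.0083), where 18.2% of all tested were higher and 18.1% lower. Without D6-deficient replicate 1 of day 1 neither Ddx60 (adjusted p = 0.0772) nor Tlr3 (0.0513) passed. At day 2, 20 of the 23 were higher and none lower, where 17.5% of all tested were higher, and 6 were called, where 1.7% of all tested were: both probe sets of Zbp1, 2 of Dhx58 and 2 of Eif2ak2. At day 4, 12 were higher and none lower, where 18.8% of all tested were higher. The calls of day 4 were both probe sets of Zbp1 (2.11, adjusted p = 3.0e-08, and 1.95, adjusted p = 2.5e-08) and Ifi204 (1.60, adjusted p = 3.6e-04), 3 of 23, where 1.97% of all tested were called higher. At day 6, 2 probe sets of Eif2ak2 were higher than at day 0 (0.55, adjusted p = 0.0077, and 0.40, adjusted p = 0.018), where 16% of all tested were.

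Between day 2 and day 4 the genotypes moved differently, which was tested after the values had been seen. Over this step 6 of the 23 probe sets rose and 3 fell in WT skin, where 7.16% and 7.39% of all tested did, while none rose and 13 fell in D6-deficient skin, where 8.54% of all tested fell. Over the same step the summed intensity of the macrophage markers went from 13550 to 15289 up to 16333 to 18949 in WT and from 17554 to 18662 down to 13549 to 14673 in D6-deficient skin, and the keratinocyte sum fell to the day 4 ranges given above in both. The neutrophil sums of days 2 and 4 overlapped, at 37879 to 50799 and 43098 to 52883 in WT and 47993 to 53289 and 51277 to 53303 in D6-deficient skin. The endothelium sum went from 961.6 to 1264 up to 1404 to 1797 in WT. In D6-deficient skin it went from 1314 to 1876 up to 1775 to 2617, with overlap. The plasmacytoid dendritic cell sums of the 2 days overlapped in both genotypes. No marker was tested for this step, and the part of these cells in the sensor values was not tested. The step was more negative in D6-deficient skin for all 23, and 8 passed an adjusted p of 0.05, where 0.633% of all tested did in that direction. Of the quoted probe sets these were Dhx58 (-2.07, SE 0.28, adjusted p = 2.6e-04), Ddx60 (-1.76, SE 0.296, adjusted p = 0.0023), Zbp1 (-1.54, SE 0.301, adjusted p = 0.010) and Ddx58 (-1.20, SE 0.151, adjusted p = 1.1e-04). The day 2 arrays of this test are the same as those of the day 2 comparisons, so it does not stand apart from them. Called were 3 of the 23, against 0.25% of all tested, and 5 without WT replicate 3 of day 2, WT replicate 2 of day 4 or D6-deficient replicate 2 of day 2.

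The members took this step in different ways. Dhx58 rose by 1.36 in WT skin (adjusted p = 3.2e-05) and fell by 0.71 in D6-deficient skin (adjusted p = 0.014), so that at day 4 its arrays read 7.51, 7.52 and 7.69 in WT and 7.50, 7.42 and 7.71 in D6-deficient skin. Its fall did not pass without D6-deficient replicate 3 of day 2 (adjusted p = 0.0684) or replicate 2 of day 4 (0.0565). Zbp1 rose by 1.25 in WT (adjusted p = 2.0e-04), and its D6-deficient arrays moved from 9.44, 9.05 and 9.63 to 8.66, 9.23 and 9.35 (-0.30, adjusted p = 0.41). For Ddx60 the WT change was 0.02 (adjusted p = 0.98), and the D6-deficient arrays dropped to 6.70, 6.52 and 6.64, a change of -1.75 (3.36-fold, adjusted p = 2.0e-06). Tlr7 fell in both, by 1.21 in WT (adjusted p = 9.6e-05) and by 1.89 in D6-deficient skin (3.70-fold, adjusted p = 2.5e-07), and these steps did not differ at an adjusted p of 0.05 (-0.68, adjusted p = 0.37).

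**Figure D3:**
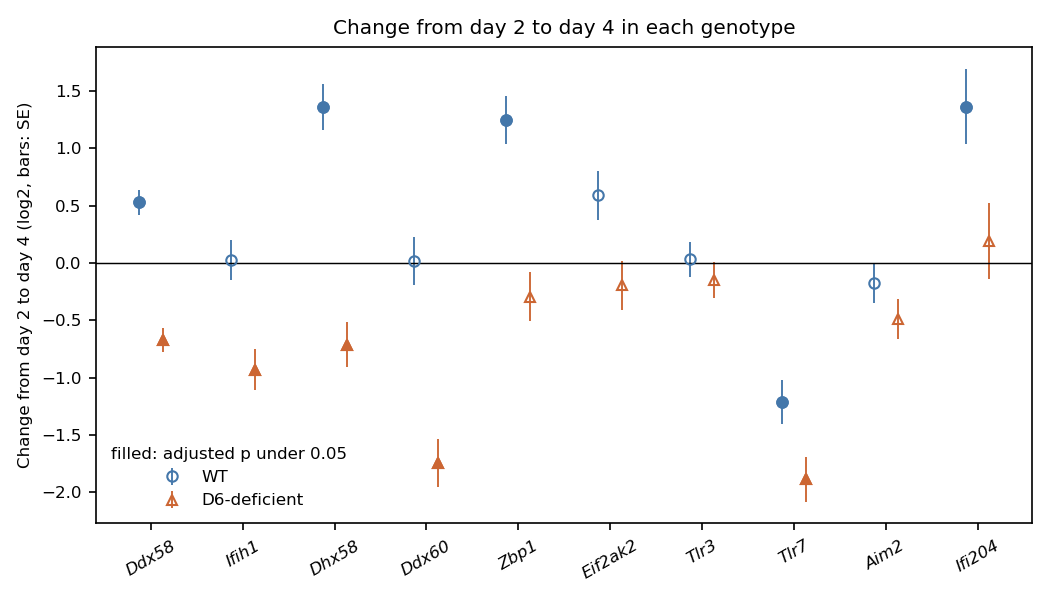
Change from day 2 to day 4 (vertical axis, log2, bars the SE of the fit) of the quoted probe set of each gene, WT as circles and D6-deficient as triangles, filled where the adjusted p was under 0.05. The change is lower in D6-deficient than in WT skin for all 10 genes, and Dhx58 and Ddx58 have filled points on opposite sides of 0.

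From day 4 to day 6, probe sets of the sensors passed in the downward direction alone. In WT skin 7 of the 23 fell and none rose, where 10% of all tested fell, and in D6-deficient skin 13 fell and none rose, where 14.5% did. In WT the calls were Dhx58 (-1.64, adjusted p = 1.4e-06) and a probe set of Zbp1 (-1.63, adjusted p = 1.2e-06), 2 of 23, where 1.1% of all tested were called lower, and there was 1 call without WT replicate 1 or 3 of day 4 and there were 0 without WT replicate 3 of day 6. In D6-deficient skin the calls were both probe sets of Zbp1 (-1.71, adjusted p = 1.2e-06, and -2.23, adjusted p = 6.6e-09) and Ifi204 (-1.98, adjusted p = 5.9e-05), 3 of 23, where 1.56% were called lower. The quoted Tlr7 probe set had a positive change in both, of 0.44 in WT (adjusted p = 0.11) and 0.44 in D6-deficient skin (adjusted p = 0.091). On day 6 itself none of the 23 differed between the genotypes at an adjusted p under 0.05 by limma, where 0.125% of all tested did. An unadjusted p under 0.05 was found for 1 of the 23, a smaller share than over all tested (3015 of 36029), and the methods' t-test called 0. On day 4 itself none passed by limma either, where 0.513% of all tested did. An unadjusted p under 0.05 was found there for 5 of the 23, against 3620 of 36029, and the methods' t-test called 0.

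Averaged over the 5 days, 10 of the 23 probe sets were higher in D6-deficient skin and none lower at an adjusted p under 0.05, where 2.29% of all tested were higher. On single days, 15 of the 23 passed as higher at day 2 and none at days 0, 1, 4 and 6. The average therefore does not show a difference on every day. Ddx58 was higher by 0.38 (adjusted p = 1.5e-05), Ifih1 by 0.39 (adjusted p = 0.0031), Dhx58 by 0.48 (adjusted p = 0.0012), Zbp1 by 0.38 (adjusted p = 0.016) and Eif2ak2 by 0.41 (adjusted p = 0.010). No probe set of Ddx60, Tlr3, Tlr7, Aim2 or Ifi204 passed. By the methods' t-test, Dhx58 and Zbp1 did not pass even unadjusted, and none of these 5 genes passed after Benjamini-Hochberg adjustment (adjusted values of 0.515 to 0.915). For this average, that test compared all arrays of each genotype without regard to day. Changes between days thus counted as spread within a genotype, so it cannot serve as a check of the limma values.

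The order of the 10 groups differed among the members. It was taken for the quoted probe sets alone. How often the same groups come first among all tested probe sets was not counted, so the order is a description only. The D6-deficient day 2 group was the highest for Ddx58, Ifih1, Dhx58, Ddx60 and Tlr7, without overlap with the next group, and for Zbp1, Eif2ak2 and Aim2, with overlap. For Dhx58 the next groups were WT day 4 and D6-deficient day 4, at means of 7.58 ± 0.10 and 7.54 ± 0.15 (SD, n = 3), whose arrays overlapped. For Zbp1 the 3 highest groups overlapped in turn, D6-deficient day 2 at 9.37 ± 0.30, D6-deficient day 4 at 9.08 ± 0.37 and WT day 4 at 8.93 ± 0.34 (SD, n = 3), and stood clear of the rest. For Ddx60 and Tlr7 the second group was WT control skin, at 7.76 ± 0.29 and 7.77 ± 0.04 (SD, n = 3). Ifi204 was highest in D6-deficient skin at day 4 (8.92 ± 0.39, SD, n = 3), with overlap with D6-deficient day 2 and WT day 4. For Tlr3 every group overlapped with its neighbour in the order, WT control skin being the highest at 7.84 ± 0.07 (SD, n = 3).

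As a description over the 10 group means, which share their arrays' preparation, the profiles of Dhx58 and Eif2ak2 correlated at 0.96, those of Ddx58 and Dhx58 at 0.95 and those of Zbp1 and Ifi204 at 0.93, whereas those of Tlr7 correlated at 0.21 with Dhx58, 0.05 with Zbp1 and -0.01 with Ifi204. The gene outside the members with the most similar profile was Oasl1 for Dhx58 (r = 0.996), Herc6 for Ddx58 (0.989), Slfn2 for Zbp1 (0.988), Irgm1 for Ifi204 (0.987), Susd3 for Aim2 (0.978), Ace for Tlr7 (0.976), 2010002M12Rik for Eif2ak2 (0.974), Rnf213 for Ifih1 (0.972), Plekho1 for Tlr3 (0.962) and Maf for Ddx60 (0.947). The genes nearest to the mean profile of the 10 members were Trafd1, Parp12, Uba7, H2-T24 and Dtx3l, with r from 0.961 to 0.988.

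Other genes of the same pathways were tested at day 2 relative to day 0. Among other nucleic acid sensors, 7 of 31 tested probe sets were higher in D6-deficient skin and none lower at an adjusted p under 0.05, with a median of 0.33. Of all tested probe sets, 2.78% were higher and 2.62% lower. They were led by Pyhin1 (3.38, adjusted p = 3.1e-05), of the same family as Ifi204, and Tlr13 (2.01, adjusted p = 0.0082), an endosomal sensor of bacterial ribosomal RNA. The 7 include the probe set that Ifi204 shares. The changes behind these values stood in D6-deficient skin, where Pyhin1 rose by 3.47 from day 0 to day 2 (adjusted p = 6.8e-09), against 0.09 in WT (adjusted p = 0.87), and Tlr13 by 2.39 (adjusted p = 2.7e-06), against 0.38 in WT (adjusted p = 0.42). A second Pyhin1 probe set gave 4.43 relative to day 0 but did not pass (SE 1.48, adjusted p = 0.0856).

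Among adaptors, kinases and effectors of the sensors, 5 of 47 tested probe sets were higher and 1 lower, with a median of 0.11. The higher ones were led by Irf7, the transcription factor that amplifies interferon-α genes, at 3.37 (adjusted p = 1.7e-06), Mlkl, the executor of necroptosis, at 1.43 (adjusted p = 1.4e-05), and Unc93b1, the chaperone of the endosomal Toll-like receptors, at 1.13 (adjusted p = 0.0032). The 1 lower probe set is no more than the share over all tested. It reads Pycard, the adaptor of the AIM2 inflammasome, at -0.83 (adjusted p = 0.012), and the other 3 Pycard probe sets gave -0.52 (adjusted p = 0.11), -0.27 (adjusted p = 0.75) and -0.12 (adjusted p = 0.81). Among nucleases, editing enzymes and inhibitors, 6 of 31 were higher and 1 lower, with a median of -0.01. Adar, which edits double-stranded RNA, gave 1.62 (adjusted p = 1.7e-05), a probe set shared by Trex1 and Atrip gave 1.37 (adjusted p = 1.2e-04) and another 0.11 (adjusted p = 0.89), and Samhd1, which degrades deoxynucleotides, gave 1.21 (adjusted p = 9.4e-04), while Arl5b gave -0.69 (adjusted p = 0.017), and -1.04 (adjusted p = 0.063) and -0.78 (adjusted p = 0.26) on its other probe sets.

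The list of type I and III interferons and their receptors was measured in part. Of its 24 genes, 15 were on the array, with 19 probe sets, of which 14 lay above the intensity filter. Of the 14 tested, 3 were higher, 2 of Ifnar2 (0.71, adjusted p = 0.024, and 0.69, adjusted p = 0.0035) and 1 of Ifnar1 (0.62, adjusted p = 0.016), which encode the type I interferon receptor, and 1 was lower, Il28ra (-0.80, adjusted p = 0.0036). None of the 8 tested probe sets of interferon genes passed, and the value for Ifnb1 was 0.22 (adjusted p = 0.71). Of 19 tested probe sets of the eIF2α kinases other than PKR and their stress targets, none passed by limma (median -0.003), and 2 had an unadjusted p under 0.05. Over all 36029 tested probe sets 6089 had.

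**Figure D4:**
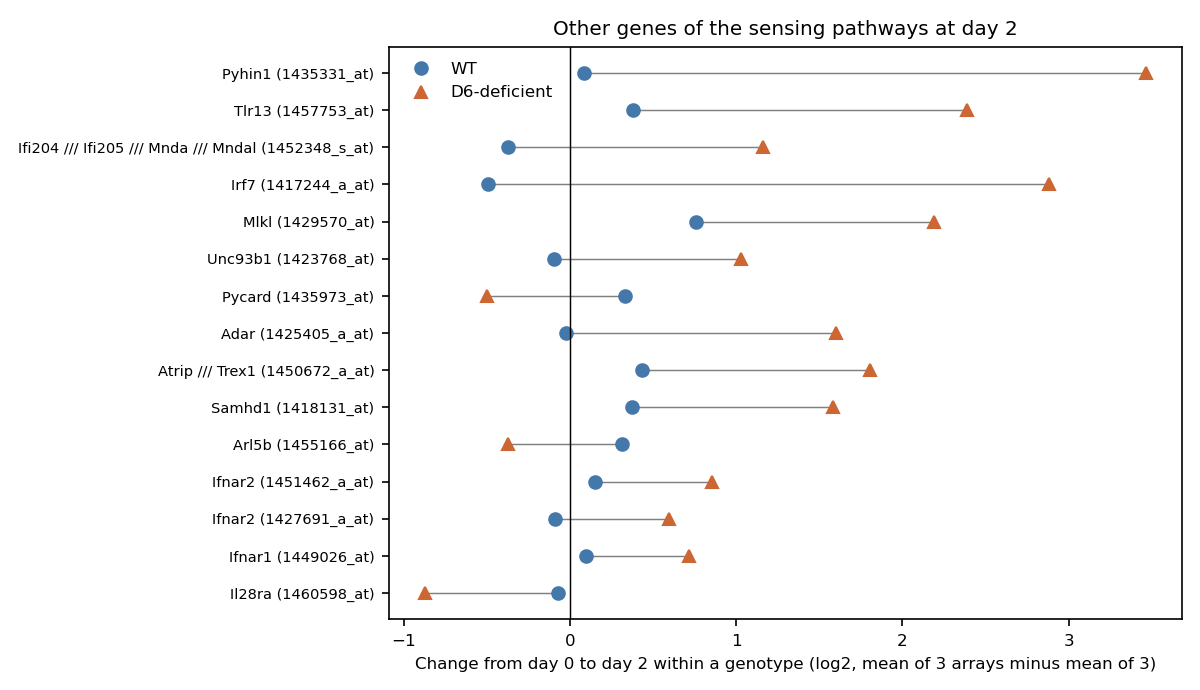
Change from day 0 to day 2 (horizontal axis, log2, mean of 3 arrays minus mean of 3) in WT (circles) and D6-deficient skin (triangles) for the leading probe sets of the pathway lists (vertical axis), those with the largest day 2 differences relative to day 0 at an adjusted p under 0.05. Pyhin1 and Irf7 have the longest distances between the genotypes, and Pycard, Arl5b and Il28ra have the D6-deficient point on the left.

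Some markers of infiltrating cells moved with the sensors at day 2. Relative to day 0, 3 of 6 macrophage markers (Fcgr1 at 2.45, Cd68 at 1.65 and Itgam at 1.43), 3 of 6 neutrophil markers (Ngp at 4.63, Ltf at 3.81 and Camp at 3.20) and 3 of 6 plasmacytoid dendritic cell markers (Bst2 at 2.00, Ccr9 at 1.83 and Siglech at 1.21, of which Bst2 is itself induced by interferon) were higher in D6-deficient skin at an adjusted p under 0.05. Of all tested probe sets, 2.78% were higher at that threshold. Without subtraction of day 0, 1 of the 6 plasmacytoid markers was higher at day 2, Bst2 (1.33, adjusted p = 9.8e-05), while Siglech gave 0.63 (adjusted p = 0.15) and Ccr9 -0.16 (adjusted p = 0.78). In that comparison 2 of 6 macrophage markers and 4 of 6 neutrophil markers were higher, against 2.46% of all tested. Itgam did not pass there (0.85, adjusted p = 0.055). Of the markers that did not pass relative to day 0, S100a8 gave -2.31 (adjusted p = 0.11), S100a9 -1.93 (adjusted p = 0.21), Cox6a2 -0.51 (adjusted p = 0.39) and Ly6d -0.09 (adjusted p = 0.95). None of 4 keratinocyte markers passed, and 1 of 5 markers of dendritic and Langerhans cells was lower, Cd207 (-2.75, adjusted p = 0.0034), which encodes langerin. The summed intensity of the macrophage markers at day 2 ran from 13550 to 15289 in WT and from 17554 to 18662 in D6-deficient skin, against 15816 to 17746 and 11222 to 14046 at day 0. For the plasmacytoid dendritic cell markers it ran from 7742 to 8500 in WT and from 8702 to 11490 in D6-deficient skin at day 2, against 8214 to 8832 and 7603 to 9237 at day 0. For the neutrophil markers it ran from 37879 to 50799 in WT and from 47993 to 53289 in D6-deficient skin at day 2, which overlapped, against 639.7 to 4406 and 2556 to 14906 at day 0. Csf1r (0.44), Emr1 (0.66) and Mrc1 (0.53) of the macrophage list, Cxcr2 (0.91) of the neutrophil list and Tcf4 (0.35) of the plasmacytoid list did not pass either. The part of these cells in the sensor values was not tested.

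For 9 of the 10 genes all day 2 arrays of D6-deficient skin lay above those of WT. Arrays of the 2 genotypes did not overlap for 22.3% of all tested probe sets. The same order within each of the sets formed by the hybridization controls was therefore fixed, and it is no check of these sets. The differences within the sets were 1.57 and 1.48 for Ddx58, 1.53 and 1.12 for Ifih1, 2.19 and 1.97 for Dhx58, 1.81 and 1.64 for Ddx60, 1.90 and 1.66 for Zbp1, and 1.06 and 1.56 for Ifi204. For Aim2 they were -0.02 and 0.61. A set held 1 array of a genotype and 2 of the other, so no test was made within it.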

How the data were processed

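The authors hybridised skin RNA to Affymetrix Mouse430_2 arrays and processed the signals by robust multiarray analysis (background correction, quantile normalization and summarization). The deposited intensity values are linear and not base-line-transformed; a second deposited text is a sample sheet without measurements and was not used. The genome build is not given in the sources used here. RefSeq promoters of GRCm38.p6 were used only for sequences.

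The log2 of the deposited intensity was taken. After 64 controls were left out, the 20% of probe sets with the lowest mean (9008 of 45037) were removed, and 36029 were tested. A limma 3.58.1 model (R 4.3.3; lmFit, eBayes) with a mean for each combination of genotype and day used all 30 arrays, and a probe set was called at a Benjamini-Hochberg adjusted p under 0.05 over all tested probe sets and a change of more than 3-fold. The study's statistics paragraph names unpaired t tests of D6-deficient against WT mice, and its thresholds for the arrays are a p under 0.05 and more than 3-fold, with no adjustment mentioned. This test of each probe set alone, called the methods' t-test, was run as an alternative on the same values at these thresholds, unadjusted and after Benjamini-Hochberg adjustment. Relative to day 0, it first subtracted the median of each genotype's day 0 arrays, so the spread of those arrays does not enter it. For the difference of steps the day 2 medians were subtracted likewise. For the average over days it took no account of the day. "Relative to day 0" is the change in D6-deficient skin minus that in WT skin. The number of arrays limits the precision: with 3 arrays in each of a pair of groups the smallest exact permutation p is 0.1, and adjusted p values come from limma. The fit was tested on simulated data.

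The members and lists were chosen with earlier results of these data known. For each member the probe set with the highest mean is quoted, preferring one that names 1 gene, and disagreeing probe sets are given. From each list, up to 3 probe sets with the largest rise and 3 with the largest fall at day 2 relative to day 0 at an adjusted p under 0.05 were named, and Ifnb1 and the markers that did not pass were added after their values were seen. Marker lists were of keratinocytes, plasmacytoid dendritic cells, macrophages, neutrophils, dendritic and Langerhans cells, T cells, endothelium, muscle and adipocytes, and no marker of T cells (3 tested), endothelium (3), muscle (3) or adipocytes (2) passed in the day 2 comparisons. Alternatives were the filter, the fold threshold, median centring, the methods' t-test, only the arrays of the contrast, an intensity trend, array weights, a replicate block, the hybridization sets, averaging of a gene's probe sets, and leaving out each array. Figures were drawn with matplotlib 3.10.9.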

Additional observations from a re-analysis of the deposited data

Results flagged for a closer look

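The effect of TPA differed between the genotypes, by a test of the difference itself, for 8 of the 10 quoted probe sets at day 2 relative to day 0 (limma, adjusted over all tested probe sets). Of all tested probe sets, 2.78% were higher there. The differences were 1.68 for Ddx58 (adjusted p = 5.05e-07), 1.45 for Ifih1 (adjusted p = 0.001), 2.50 for Dhx58 (adjusted p = 6.7e-06), 2.67 for Ddx60 (adjusted p = 6.2e-06), 2.05 for Zbp1 (adjusted p = 2.0e-04), 1.47 for Eif2ak2 (adjusted p = 0.0039), 1.70 for Tlr7 (adjusted p = 5.1e-04) and 1.84 for Ifi204 (adjusted p = 0.019). In each the D6-deficient change was the higher. As given above, the Ifi204 value lost its adjusted p when single arrays were left out. All 10 quoted probe sets were lower in D6-deficient skin at day 0, so each of these values includes a day 0 difference in the opposite direction. That difference passed the adjusted p for Ddx60 and Tlr7. The median of the 10 was 1.69 relative to day 0 and 1.42 on day 2 itself. The step from day 2 to day 4, whose test was chosen after the values were seen, differed in the opposite direction for Ddx58 (-1.20, adjusted p = 1.1e-04), Dhx58 (-2.07, adjusted p = 2.6e-04), Ddx60 (-1.76, adjusted p = 0.0023) and Zbp1 (-1.54, adjusted p = 0.010). In that direction 0.633% of all tested probe sets passed.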

How the results depend on the processing

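Of the changes and differences of single genes, 785 values under other settings kept their direction and side of the threshold, 77 lost the adjusted p, 7 gained it and 1 turned (Ddx58 in WT skin at day 4, -0.030, adjusted p = 0.851, when its probe sets were averaged). With 1 array left out, 668 kept both, 57 lost the adjusted p, 1 gained it and none turned. Counts of calls moved most without the fold threshold, as that alternative keeps smaller changes. Relative to day 0 there were then 18 at day 2. Between the genotypes there were 2 on day 0, 15 on day 2 and 10 over all days. In WT skin there were 11, 3, 13 and 7 at days 1, 2, 4 and 6, and in D6-deficient skin 5, 20, 12 and 2. Between days 2 and 4 there were 9 in WT and 13 in D6-deficient skin, between days 4 and 6 7 and 13, and 8 for the genotype difference in the step from day 2 to day 4. The methods' t-test gave 6 for that difference unadjusted and 0 after Benjamini-Hochberg adjustment, which also left 0 on day 2 itself, 1 from day 2 to day 4 and 1 from day 4 to day 6 in D6-deficient skin. With array weights 1 was called relative to day 0 at day 1 and 2 in WT skin at day 1. With probe sets averaged there were fewer features to count, and the calls were 3 relative to day 0 and 1 on day 2 itself, 0 in WT skin at day 4, 3 and 1 in D6-deficient skin at days 2 and 4, 0 from day 4 to day 6 in WT, 0 and 1 for the steps from day 2 and from day 4 in D6-deficient skin, and 1 for the difference of steps.

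Leaving out each array in turn gave 9 to 13 calls relative to day 0 at day 2, 5 to 8 on day 2 itself, 1 to 2, 0 to 1 and 0 to 1 in WT skin at days 1, 4 and 6, and 6 to 8 and 2 to 3 in D6-deficient skin at days 2 and 4. For the steps it gave 0 to 1 and 0 to 3 in WT, 2 to 3 and 2 to 3 in D6-deficient skin, and 3 to 5 for the difference of steps, and 0 throughout for the other comparisons. The single call in WT skin at day 6 came without WT replicate 3 of day 0, and that from day 2 to day 4 without WT replicate 3 of day 2 or WT replicate 2 of day 4.

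Same-numbered arrays of different groups did not deviate together more than others (median r = -0.01, from -0.352 to 0.481, against a median of 0.008 for other pairs). Of the 30 arrays, 12 correlated best with their own number. No pairing of the mice by number was seen, but this check cannot exclude one. With the number as a replicate block, 11 calls were made relative to day 0 at day 2 and 5 on day 2 itself, and no other count moved by more than 1.5 times.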
